A study of Mus musculus with 8 samples.

Results

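The immunoglobulin and plasma cell genes of the regenerating mouse lung are described here by 9 genes, namely the immunoglobulin chains Ighm, Igk and Igkv15-103, the joining chain Jchain, the secretory pathway genes Mzb1 and Derl3, and the transcription factor genes Pou2af1, Prdm1 and Xbp1. They were taken as every probe set whose only gene symbol in the array annotation is 1 of the 9, which gave 25 of 45037 probe sets and 9 of 18193 genes. The genes were picked with the differences between the surgeries on these same arrays known, so those differences, and any call or count made from them, are given as a description and nothing is read from them. All 25 probe sets are accounted for, because probe sets of the same gene disagree, and 16 of them lie above the median level of all probe sets (5.92 on the log2 scale).

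Lung RNA of adult female C57BL/6 mice of 10 to 12 weeks was measured after left unilateral pneumonectomy (PNY), which removes the left lung, or after sham thoracotomy (SHAM), in which the chest is opened and closed again with both lungs in place. Both groups had the same anesthesia, ventilation, ampicillin and buprenorphine, and the lungs were perfused before they were removed. The 8 arrays hold 1 PNY and 1 SHAM sample for each time after the operation (6 hours, 1 day, then 3 and 7 days), every one pooled from 8 mice, so that no value carries the spread between mice and the number of arrays limits the precision. Values are log2 expression after RMA, a method that corrects background, puts the arrays on the same distribution and combines the probes of a probe set. The array medians spanned 0.047. The lung markers Sftpc (surfactant protein C, 14.65 to 14.69) and Scgb1a1 (club cell secretory protein, 14.71 to 14.82) were among the brightest values on every array. Thymocyte genes stood high on the PNY array of 1 day alone. On that array the summed linear level of 14 thymocyte genes was 4676, against 1808 to 1932 on the other PNY arrays and 1791 to 2194 on the SHAM arrays, and Rag1, the recombinase of developing lymphocytes, had a log2 level of 9.60 against 2.56 to 3.62. The surgery differences, correlations and late against early calls in which these arrays take part most are therefore also given without both arrays of 1 day. In the late against early comparison this leaves 6 hours as the only early time point.

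An antibody is built of heavy and light chains, each with a variable segment joined to a constant region, and antibodies of the IgM and IgA classes are linked into larger molecules by the J chain. B cells carry IgM on their surface and, once they turn into plasma cells, secrete antibody in large amounts, for which they enlarge the endoplasmic reticulum. In the airways antibodies of these classes are carried across the epithelium into the lining fluid.

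Promoter sequences show what the secretory and regulatory genes of the group have in front of them. RefSeq (GRCm38.p6) gave a promoter of 300 bases, 250 before and 50 after an annotated start, for 5 of the 9 genes. For Prdm1 that start lies inside the gene (chr10:44458699-44458998, minus strand) and not at its outer end (44528558), whose promoter was not searched. The promoters of Pou2af1 (chr9:51213440-51213739, plus strand) and Derl3 (chr10:75893148-75893447, plus strand) are shown because each holds the core of the element that Xbp1 binds, ACGTGG or its reverse complement CCACGT, marked by capitals. That of Jchain (chr5:88527848-88528147, minus strand) is shown because Jchain had the widest differences among the 5 genes.
Pou2af1: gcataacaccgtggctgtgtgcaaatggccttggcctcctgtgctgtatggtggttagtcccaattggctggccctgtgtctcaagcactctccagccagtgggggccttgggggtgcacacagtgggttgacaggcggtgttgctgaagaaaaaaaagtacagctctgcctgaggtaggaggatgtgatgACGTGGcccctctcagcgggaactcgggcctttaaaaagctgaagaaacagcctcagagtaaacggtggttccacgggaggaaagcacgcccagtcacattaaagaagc
Derl3: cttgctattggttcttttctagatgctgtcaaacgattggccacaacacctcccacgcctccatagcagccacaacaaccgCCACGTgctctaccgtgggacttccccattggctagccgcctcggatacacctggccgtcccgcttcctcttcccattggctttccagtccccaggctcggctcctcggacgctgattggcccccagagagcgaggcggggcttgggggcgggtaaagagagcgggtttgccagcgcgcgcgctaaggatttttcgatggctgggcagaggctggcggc
Jchain: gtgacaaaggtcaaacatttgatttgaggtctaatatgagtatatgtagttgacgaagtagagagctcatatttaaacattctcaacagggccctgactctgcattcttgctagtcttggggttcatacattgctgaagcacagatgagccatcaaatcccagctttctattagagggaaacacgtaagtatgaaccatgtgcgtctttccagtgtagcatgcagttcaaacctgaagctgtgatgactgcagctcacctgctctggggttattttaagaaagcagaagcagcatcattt
In Pou2af1 the match began 59 bases before the start on the plus strand, and in Derl3 169 bases before it on the minus strand. The promoters of Jchain, Prdm1 and Xbp1 held no such match. On either strand ACGTGG occurred in 8.31% of 32841 mouse promoters, the octamer ATGCAAAT of immunoglobulin promoters in 1.74% and the TATA box TATAAA in 13.6%, and neither the octamer nor the TATA box was found in the 5 promoters. A match is a run of letters and not a measured binding site.

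Ighm, the constant region of the IgM heavy chain (GRCm38.p6 chromosome 12, 113418826 to 113422730), was the gene with the largest number of probe sets, 11 in all. Its brightest, 1427351_s_at, measured 11.09, 11.11, 9.59 and 9.98 in PNY in the order of the time points (6 hours to 7 days, the order kept for every run of 4 values given here). In SHAM it measured 10.27, 10.05, 11.43 and 12.23. The PNY arrays were thus the higher ones at 6 hours and 1 day and the lower ones at 3 and 7 days, while the ranges of the surgeries overlapped. In fold terms PNY was 1.77-fold and 2.09-fold above SHAM at the early time points, then 3.57-fold and 4.75-fold below it, which gave a mean log2 difference of -0.55 ± 1.74 (SD over the 4 time points). Without both arrays of 1 day the mean was -1.09, and with a single array left out it ran from -0.87 (SHAM of 1 day) to -0.14 (SHAM of 7 days). In whole lung RNA fewer antibody-producing cells and less RNA per cell cannot be told apart.

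A second bright probe set of Ighm, 1427329_a_at, measured 10.37, 10.70, 10.29 and 10.05 in PNY and 9.92, 10.27, 11.05 and 11.58 in SHAM at the 4 time points in order. It changed sides at the same time as the first, with differences of 0.45, 0.43, -0.76 and -1.53, and over the 8 arrays the pair correlated with a Pearson r of 0.88 (0.88 also over the 6 arrays without 1 day). Another, 1425385_a_at, was dim on most arrays, with 5.50, 8.82, 5.14 and 5.11 in PNY and 6.77, 4.96, 5.85 and 4.93 in SHAM. It stood out on the PNY array of 1 day, 14.6-fold above SHAM, which is the array with the high thymocyte genes, and the part of these in the difference was not tested. The other 8 probe sets of Ighm lay between 2.79 and 7.32, and the brightest of them, 1427870_x_at, ran against the bright pair (r of -0.37 and -0.33, or -0.62 and -0.48 without 1 day). At 3 days all 11 probe sets of Ighm were lower in PNY, and at 7 days 6 of 11. Immunoglobulin genes share long stretches of near-identical sequence, and probe sets with the endings _s_at and _x_at can bind several of them, so which transcript each reports is uncertain.

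Igk is the annotation's name for the whole locus of the kappa light chain (chromosome 6, 67555636 to 70726754), and its 4 probe sets disagreed. The brightest, 1425738_at, measured 8.67, 7.45, 6.71 and 6.94 in PNY and 7.39, 6.74, 7.38 and 7.41 in SHAM. Only the PNY array of 6 hours stood clear of the SHAM range by more than 1 log2 unit, 2.44-fold above SHAM of that time, and at 3 and 7 days PNY was 1.59-fold and 1.38-fold lower. The probe set 1452557_a_at measured 6.33, 8.29, 6.54 and 5.40 in PNY and 6.55, 6.98, 6.15 and 7.11 in SHAM. Its high array was PNY of 1 day, 2.48-fold above SHAM, and its low array PNY of 7 days, 3.27-fold below. The other 2 probe sets were dim (3.59 to 5.43).

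Igkv15-103, a variable segment of that locus (chromosome 6, 68437468 to 68437925), had a single probe set, 1427837_at. It measured 5.53, 8.67, 5.50 and 5.21 in PNY and 6.43, 5.79, 6.03 and 8.58 in SHAM. On 6 arrays it thus lay at or below 6.43, and 2 arrays stood high, PNY of 1 day and SHAM of 7 days. PNY was 7.36-fold above SHAM at 1 day and 10.3-fold below it at 7 days, and the mean difference of -0.48 had an SD of 2.57. That mean was -1.60 without both arrays of 1 day, -1.30 without PNY of 1 day and 0.14 without SHAM of 7 days, so its sign rests on 1 array. The course of this probe set was the widest swing among the probe sets of the 9 genes above the median level.

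Jchain, which joins IgM and IgA units to polymers (chromosome 5, 88519809 to 88527897), measured 8.52, 9.55, 7.40 and 8.09 in PNY and 8.31, 7.33, 8.91 and 9.68 in SHAM by 1424305_at. PNY of 1 day and SHAM of 7 days were again the highest arrays. The differences were 0.21, 2.23, -1.51 and -1.59, or 4.68-fold higher at 1 day and 3.01-fold lower at 7 days. Their mean, -0.16, was -0.96 without both arrays of 1 day and ran from -0.57 (without SHAM of 1 day) to 0.21 (without SHAM of 7 days), turning above 0 also without PNY of 3 days (0.17). Over the 8 arrays Jchain correlated with the brightest probe set of Ighm (r of 0.89, and 0.97 without 1 day) and with Igkv15-103 (0.82 and 0.81), values which share the same arrays and carry no test.

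**Figure D1:**
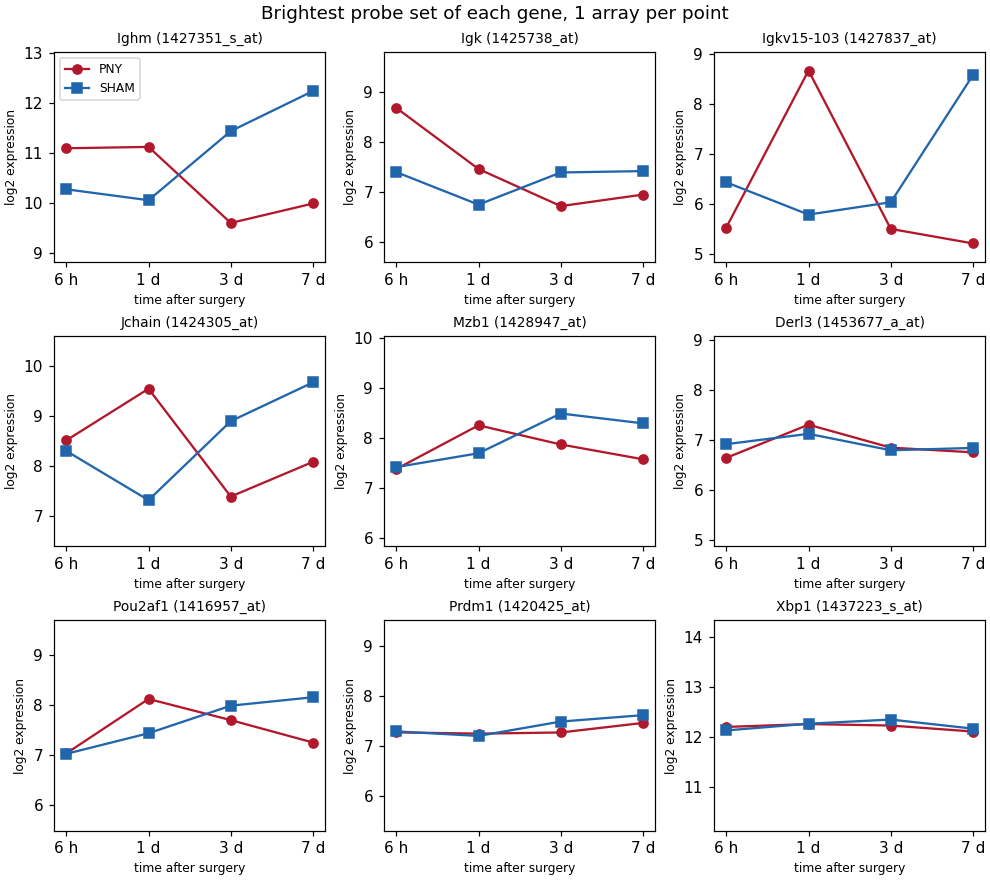
Log2 expression of the brightest probe set of each of the 9 genes against the time after surgery (6 h to 7 d), with PNY as red circles and SHAM as blue squares, 1 array of pooled RNA per point and therefore no error bars; all panels span the same log2 range. The lines of Ighm, Igk and Jchain cross between 1 day and 3 days, Igkv15-103 has 2 high arrays, and Derl3, Prdm1 and Xbp1 hardly part.

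Mzb1, a partner of endoplasmic reticulum chaperones in B and plasma cells that aids the assembly of IgM, measured 7.37, 8.25, 7.86 and 7.57 in PNY and 7.41, 7.69, 8.48 and 8.28 in SHAM. The surgeries were level at 6 hours. PNY was 1.47-fold higher at 1 day and 1.54-fold and 1.64-fold lower at 3 and 7 days, the order also found for the immunoglobulin chains at a smaller size. Derl3, which helps to remove misfolded proteins from the endoplasmic reticulum (chromosome 10, 75893398 to 75895941), measured 6.64, 7.30, 6.84 and 6.75 in PNY and 6.91, 7.12, 6.79 and 6.84 in SHAM. No difference of Derl3 exceeded 0.27 in size, and its mean difference was -0.03 ± 0.20.

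Among the transcription factors, Pou2af1, the coactivator of octamer factors in B cells (chromosome 9, 51213690 to 51240079), measured 7.04, 8.13, 7.71 and 7.26 in PNY and 7.03, 7.44, 7.99 and 8.16 in SHAM. It was 1.61-fold higher in PNY at 1 day and 1.87-fold lower at 7 days. Its course was close to that of Mzb1 (r of 0.96 over the 8 arrays and also without 1 day), the highest value over the 8 arrays among the 36 pairs of the 9 genes. Prdm1, the repressor that drives plasma cell differentiation (chromosome 10, 44437174 to 44528558), measured 7.27, 7.24, 7.27 and 7.46 in PNY and 7.29, 7.20, 7.48 and 7.61 in SHAM, with a mean difference of -0.09 ± 0.12. Prdm1 is also made by other cells of the lung, as is Xbp1.

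Xbp1, the factor that enlarges the secretory pathway (chromosome 11, 5520641 to 5525993), was bright on all arrays and had 4 probe sets. By the brightest, 1437223_s_at, it measured 12.20, 12.26, 12.23 and 12.11 in PNY and 12.13, 12.26, 12.35 and 12.16 in SHAM, a range of 0.24 over all 8 arrays. The probe set 1420012_at was level between the surgeries except at 7 days, when PNY (6.49) lay 2.38-fold below SHAM (7.75), and 1420886_a_at was 1.67-fold lower in PNY at 3 days only. The remaining probe set, 1420011_s_at, differed by 0.03, -0.10, -0.23 and -0.24. The genes fell apart in this way into a group with wide differences (the chains and Jchain), a group with small ones of the same order (Mzb1 and Pou2af1), and Derl3, Prdm1 and Xbp1, of which the brightest probe sets stayed within 0.27 of SHAM at every time point.

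Taken by time point, 2 of the 25 probe sets were 1.5-fold or more above SHAM and 3 as far below it at 6 hours, where the shares of all probe sets were 0.877% and 1.37%. At 1 day 8 were higher and 1 lower (2.19% and 1.59% of all). At 3 days none was higher and 8 were lower (1.18% and 0.746%), and at 7 days none was higher and 9 were lower (1.57% and 2.08%). By their brightest probe sets 7 of the 9 genes were above SHAM at 1 day and below it at both 3 and 7 days, an order chosen after the values were seen and held by 11.9% of all genes. Since the genes were picked on this contrast, nothing is read from these shares.

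**Figure D2:**
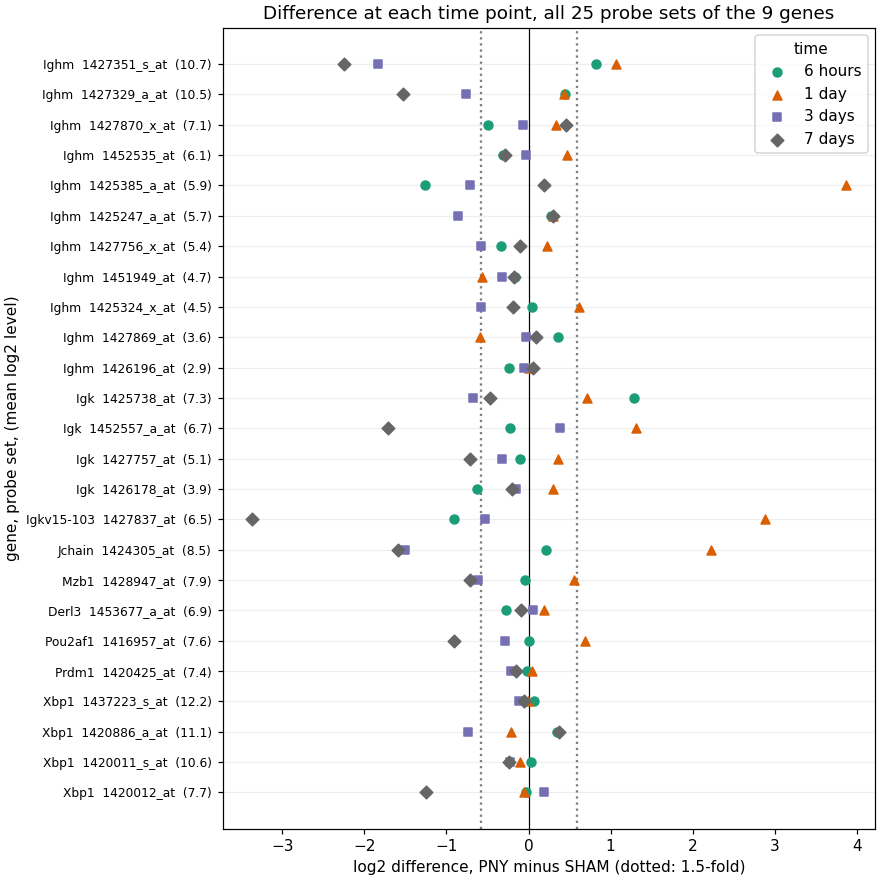
Difference in log2 expression, PNY minus SHAM, for all 25 probe sets of the 9 genes (rows, with the mean log2 level in brackets) at each of the 4 time points (coloured symbols); dotted lines mark a fold change of 1.5 either way, and each symbol is 1 array against 1 array. The orange triangles of 1 day reach 3.87 for an Ighm probe set and 2.88 for Igkv15-103, the grey diamonds of 7 days reach -3.37 for Igkv15-103, and most Xbp1 symbols lie between the lines.

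Over the 4 time points together none of the 25 probe sets met the criterion of the rank product test, which takes the time points as replicates and asks for P under 0.001 and a change of 1.5-fold or more. Of all probe sets 0.315% were called higher and 0.0555% lower in PNY. In the paper's list by rank products at the same thresholds, Igh-6 (the IgM heavy chain) is 1.5-fold higher in PNY, with no probe set named. Here the mean difference was 0.52 for Ighm 1425385_a_at and -0.55 for 1427351_s_at, the brightest Ighm probe set. The reason for the departure was not tested. The mean difference was below 0 for 21 probe sets, and 1 probe set, the dim 1451949_at of Ighm, was on the same side of SHAM at all 4 time points. Without both arrays of 1 day 5 of the 25 were called lower and none higher, where 0.127% of all probe sets were lower and 0.362% higher. These were Jchain (-0.96), Igkv15-103 (-1.60) and 3 probe sets of Ighm, 1427351_s_at (-1.09), 1427329_a_at (-0.62) and 1425385_a_at (-0.60). Since the genes were picked on this contrast and the arrays to omit were chosen after the values were seen, nothing is read from these counts against the shares. Leaving out a single array called between 0 and 3 of the 25. In particular, 1427351_s_at was called lower without PNY of 6 hours or 1 day or SHAM of 6 hours or 1 day (-0.76 to -0.87), and 1427329_a_at without SHAM of 6 hours (-0.62). Igkv15-103 was called lower once PNY of 1 day (-1.30), SHAM of 1 day (-0.79) or SHAM of 3 days (-0.71) was left out, and Igk 1452557_a_at once PNY of 1 day was (-0.61). The dim 1425385_a_at was called higher without PNY of 3 days or 7 days or SHAM of 6 hours (0.85 to 0.90).

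The order above SHAM at 1 day and below it at 3 and 7 days was held by 13 of 26 probe sets of other immunoglobulin genes, and by 11.5% of all probe sets. These genes comprise 16 genes with 26 probe sets of a single symbol, of which 11 lay above the median level, and 13 further immunoglobulin probe sets carried several symbols and were not named. Of the 26, 22 were above SHAM at 1 day, 22 below it at 3 days and 17 below it at 7 days. All 11 of the brighter ones were above SHAM at 1 day (median difference 1.08) and below it at 3 days (-0.39), and 8 of 11 were below it at 7 days (-0.98). Igha, the constant region of IgA, was the brightest of the heavy chain genes among these. By its 3 probe sets it was higher in PNY by 1.65 to 1.79 at 1 day and within 0.39 of SHAM at the other time points, and at 7 days all 3 lay above SHAM (by 0.07, 0.09 and 0.35). By the brightest, 1421653_a_at, it measured 9.35, 10.64, 9.49 and 9.92 in PNY and 9.22, 8.99, 9.73 and 9.85 in SHAM. The kappa variable segment Igkv9-120 measured 7.61, 8.71, 7.77 and 7.53 in PNY and 7.18, 7.43, 8.37 and 9.01 in SHAM by 1460423_x_at, with differences of 1.28 at 1 day and -1.48 at 7 days. Its probe sets below the median level, 1452536_s_at and 1427750_at, differed by 0.06 and -0.03 at 1 day and by -0.03 and -0.34 at 7 days. Of the 26 probe sets none met the rank product criterion over all arrays, and without both arrays of 1 day Igkv14-111 (-0.61) and Igkv8-30 (-0.65) were called lower. Igha 1429381_x_at was called higher once PNY of 6 hours (0.66), SHAM of 3 days (0.66) or SHAM of 7 days (0.63) was left out.

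The genes whose course over the 8 arrays was most like that of the brightest Ighm probe set, among 1088 genes with a range of at least 1 log2 unit, were the kappa segments Igkv14-111 (r of 0.89), Igkv9-120 (0.80) and Igkv8-30 (0.75), the lambda segment Iglv1 (0.73) and the lectin Fcna (0.72). Without 1 day the same pairs had r of 0.88, 0.80, 0.79, 0.72 and 0.75. For Jchain they were Igkv14-111 (0.88), Tmem267 (0.83), Igkv9-120 (0.81), Igkv8-30 (0.76) and the chemokine receptor Ccr6 (0.74), and without 1 day 0.88, 0.65, 0.75, 0.79 and 0.74. The nearest genes to the brightest Igk probe set held no immunoglobulin gene, with Gdpd2 (0.96) first and Sdcbp2 (0.89), Ms4a4d (0.85), Fabp4 (0.85) and Tnik (0.84) next, and without 1 day these had r of 0.99, 0.87, 0.92, 0.86 and 0.85. These are correlations over 8 pooled arrays that share time point and surgery, given as a description.

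Markers of B cells also lay mostly above SHAM at 1 day and below it at 7 days, at a smaller size. Of 27 measured B cell genes 22 were above SHAM at 1 day (median difference 0.26, with 3 of 27 at least 1.5-fold higher against 1.88% of all genes). At 7 days 26 of 27 were below SHAM (median -0.52, with 10 of 27 at least 1.5-fold lower against 1.48% of all genes). At 6 hours 23 of 27 were below SHAM (median -0.19) and at 3 days 20 of 27 (median -0.10). By their brightest probe sets the 9 genes had medians of 0.008 at 6 hours and -0.53 at 3 days. Ms4a1 (CD20) measured 8.17, 10.11, 9.54 and 8.73 in PNY and 8.29, 9.43, 9.79 and 9.49 in SHAM. The summed linear level of the 27 B cell genes ran from 3844 to 8147 on the PNY arrays and from 4399 to 8417 on the SHAM arrays. The part of B cell numbers in the differences of the 9 genes was not tested. This order was not particular to B cell markers. Of 13 measured T cell genes 10 were above SHAM at 1 day (median 0.71) and 12 below it at 7 days (median -0.48). Past 1.5-fold were 7 of 13 at 1 day (higher) and 4 of 13 at 7 days (lower), beside the same shares of all genes. The 3 T cell genes below SHAM at 1 day were Icos (-0.01), Zap70 (-0.06) and Il2rb (-0.14). The values of 1 day rest on the PNY array with the high thymocyte genes, and the part of thymocytes in the T cell differences was not tested. Of the 14 measured genes of the plasma cell list, Tnfrsf17 (BCMA, a receptor of plasma cells) lay between 4.24 and 5.07 on all arrays, below the median level, and Sdc1 (syndecan 1), which epithelium also expresses, between 11.49 and 11.89. Of these 14 genes 11 were above SHAM at 1 day (median 0.07) and 10 below it at 7 days (median -0.24). Ccr9 (3.20) and Cd28 (1.68), which thymocytes express, were the 2 of that list past 1.5-fold at 1 day. At 7 days 2 were at least 1.5-fold lower, Ccr9 (-0.66) and the transcription factor gene Irf4 (-0.60), beside the same 1.48% of all genes. By rank products no gene of the B cell or plasma cell list passed, where 0.506% of all genes were called higher and 0.0605% lower.

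**Figure D3:**
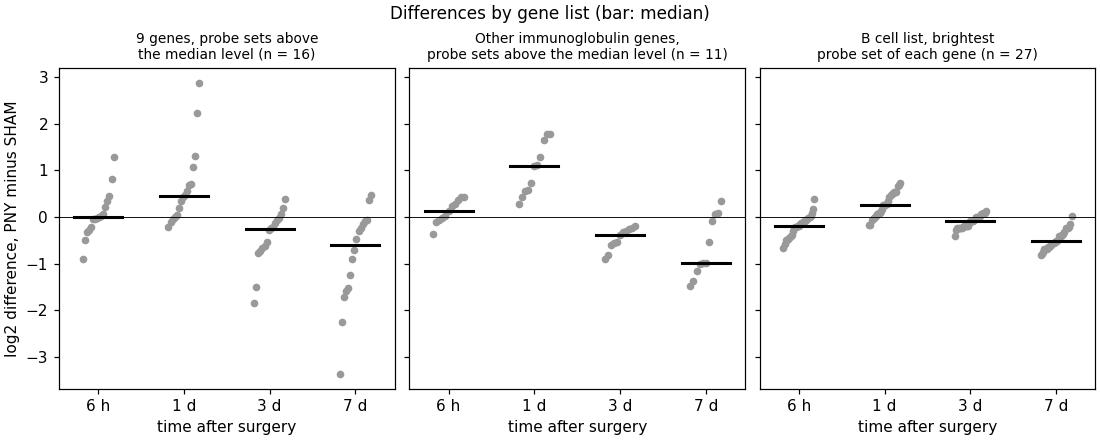
Difference in log2 expression, PNY minus SHAM, at each time point for the 16 probe sets of the 9 genes above the median level (left), the 11 such probe sets of other immunoglobulin genes (middle) and the 27 B cell genes (right); grey points are probe sets or genes and black bars the medians. The medians of the middle panel go from 1.08 at 1 day to -0.98 at 7 days and those of the right panel from 0.26 to -0.52.

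**Figure D4:**
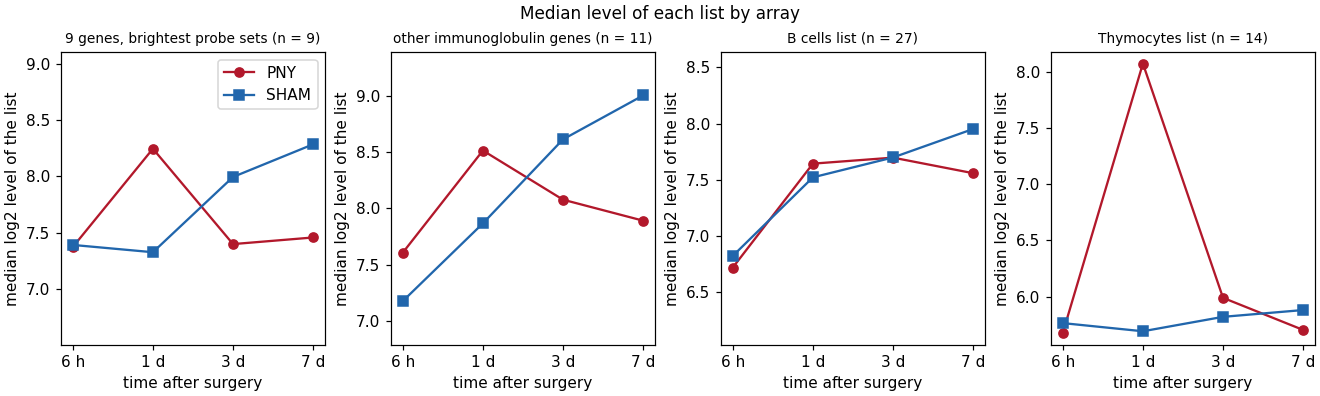
Median log2 level on each array for the 9 genes (brightest probe sets), the 11 other immunoglobulin probe sets above the median level, 27 B cell genes and 14 thymocyte genes, with PNY as red circles and SHAM as blue squares, 1 array per point; the axes span the same range. The thymocyte list peaks at 8.07 on the PNY array of 1 day, and in SHAM the other immunoglobulin probe sets go from 7.18 at 6 hours to 8.61 at 3 days and are highest at 7 days.

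The time after surgery, a contrast other than that on which the genes were picked, was taken as the mean of 3 and 7 days minus the mean of 6 hours and 1 day over both surgeries, with limma and time point and surgery as terms. None of the 25 probe sets passed at an adjusted p under 0.05, where 2.21% of all probe sets were higher late and 1.66% lower. The p-values rest on pooled samples, with 3 residual degrees of freedom. A limma unadjusted p under 0.05 was found for 4 of the 25, a share below the 21.9% of all probe sets. Xbp1 1420012_at had a difference of -0.63 ± 0.22 (SE, limma adjusted p = 0.148, exact permutation p = 0.143, two-sided, 4 arrays against 4), Xbp1 1420886_a_at one of 0.43 ± 0.18 (limma adjusted p = 0.217, exact permutation p = 0.0857), Prdm1 one of 0.21 ± 0.09 (limma adjusted p = 0.213) and the dim Igk 1426178_at one of -0.35 ± 0.14 (limma adjusted p = 0.203). The smallest p that the exact test over the 70 splits of the arrays allows is 0.029, and no probe set of the 25 reached it.

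For Ighm and Jchain the late and early means were close because the surgeries moved apart. By 1427351_s_at late minus early was -1.31 in PNY and 1.67 in SHAM, together 0.18 ± 0.54 (SE, limma adjusted p = 0.886). For Jchain it was -1.29 and 1.47, together 0.09 ± 0.56 (limma adjusted p = 0.949). Mzb1 (0.37 ± 0.20, limma adjusted p = 0.326) and Pou2af1 (0.37 ± 0.22, limma adjusted p = 0.373) had late minus early differences of 0.83 and 0.84 in SHAM and of -0.09 and -0.10 in PNY. Without both arrays of 1 day these 2 of the 25 passed, Mzb1 with 0.66 ± 0.16 (limma adjusted p = 0.0426) and Pou2af1 with 0.74 ± 0.18 (limma adjusted p = 0.0456), where 5.22% of all probe sets were higher late and 3.13% lower. The contrast was then 3 and 7 days against 6 hours alone. Xbp1 1420012_at passed without the SHAM array of 7 days (-0.95), and Ighm 1425385_a_at without the SHAM array of 1 day (-2.37). Of the 26 probe sets of other immunoglobulin genes 1 passed, Ighv14-2 1455530_at, which rose late by 0.78 ± 0.15 (SE, limma adjusted p = 0.0336). It measured 6.97, 8.29, 8.37 and 7.89 in PNY and 7.07, 7.87, 8.63 and 8.42 in SHAM, so that the arrays of 6 hours were the low ones. Its call was kept in 2 of the 8 fits with an array left out, and without both arrays of 1 day the difference was 1.31 (limma adjusted p = 0.00200).

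In the B cell list 6 of 27 genes rose late, none fell and 21 did not pass, where 3.34% of all genes were higher late and 1.4% lower. These were the IgM receptor Fcmr (0.95 ± 0.13, SE, limma adjusted p = 0.0145), the IgE receptor Fcer2a (0.86), H2-Ob (0.78) and H2-DMb2 (0.66) of the class II pathway, Cd79a of the B cell receptor (0.71) and the complement receptor Cr2 (0.65). Whether a gene passed depended on the arrays kept, and a fit with fewer arrays also has fewer residual degrees of freedom. With 1 array left out, the differences of these 6 genes stayed above 0, from 0.47 (lowest for Cr2) to 1.09 (highest for Fcmr). With 1 array left out, the number that passed was 0 where that array was of 6 hours or 3 days, 1 where it was SHAM of 1 day or 7 days, 5 where it was PNY of 7 days and 12 where it was PNY of 1 day. Without both arrays of 1 day, and so against 6 hours alone, 19 of 27 rose (7.82% of all genes). Cd79a measured 8.11, 9.66, 9.70 and 9.16 in PNY and 8.60, 9.57, 9.94 and 9.97 in SHAM, so that the arrays of 6 hours were the low ones in both surgeries.

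The carrier that takes polymeric IgA and IgM across the epithelium, Pigr, rose late by 0.90 ± 0.09 (SE, limma adjusted p = 0.00743) and was the only 1 of 10 genes of immunoglobulin receptors and transport to pass. It measured 8.94, 8.97, 9.91 and 9.81 in PNY and 8.76, 9.02, 9.66 and 9.92 in SHAM, so that every late array lay above every early array in both surgeries. Its call was lost once PNY of 3 days was left out and kept in the other 7 such fits. In 35 genes of chaperones and secretion the disulfide isomerase Pdia6 rose (0.43) and Herpud1, a gene of endoplasmic reticulum stress, fell (-0.62), and 33 did not pass. The call of Herpud1 was lost in 3 of the 8 fits with an array left out (PNY of 6 hours and both of 3 days), and that of Pdia6 in all 8. A count of 1 of 35 either way is near the shares of all genes given above (3.34% and 1.4%), which also stand beside the lists that follow. None of 12 sensors and factors of the unfolded protein response passed (Atf6b 0.30, Creb3 -0.10 and Ddit3 -0.25).

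In the remaining lists the integrin subunit Itga4 (0.44) rose among 14 plasma cell genes, the chemokine Cxcl12 (0.63) among 11 genes of B cell survival and homing, and S1pr2 (0.41) rose and Fas (-0.58) fell among 8 germinal centre genes. Of 13 T cell genes Cd2 (0.49) and Il2rb (0.37) rose, of 7 red cell genes Alas2 fell (-0.89), of 6 genes of lymph node stroma Chst4 (0.65) rose beside Fcer2a and Cr2, of 12 lung cell genes Marco (0.80) and Car4 (0.50) rose, and of 9 precursor B cell and 14 thymocyte genes none passed. Each of these calls was lost in at least 2 of the 8 settings with an array left out, and those of Itga4, S1pr2 and Il2rb in all 8, while no difference changed sign. Without both arrays of 1 day all the list genes named as rising or falling late passed in the same direction, with Herpud1 at -1.03, Pdia6 at 0.75, Cxcl12 at 1.27 and Pigr at 0.98. By rank products over the surgeries Rag1, on the precursor B cell and thymocyte lists, was called higher in PNY and Alas2 lower. The mean difference of Rag1 was 1.41 ± 3.06 (SD over time points), with 5.98 at 1 day, and -0.11 without both arrays of 1 day. That of Alas2 was -0.89 ± 0.51, and -1.13 without both arrays of 1 day.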

How the data were processed

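RNA of 8 pooled lung samples was hybridised to Affymetrix arrays of the mouse genome. The deposited log2 values are RMA output of the authors (background correction, quantile normalization, summarization; version not given in the sources used here). The 64 control probe sets were left out of 45101 and no level filter was set. Genes were named from probe sets with 1 symbol (34945; 932 carry several and 9160 none). The 9 genes and the gene lists were chosen with earlier results of these data known.

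PNY was set against SHAM by rank products over the 16 array pairs (1000 permutations, 100 for alternatives; P under 0.001 and 1.5-fold), written for this purpose (numpy 2.4.6 in Python 3.11.15), and late against early by limma 3.58.1 in R 4.3.3 (time point and surgery as terms, Benjamini-Hochberg over all probe sets, adjusted p under 0.05). Both were run on simulated data with independent normal noise, the SD of each probe set capped at the median SD. Those runs do not cover wider spread or correlation between arrays. Exact permutation tests were two-sided. Single time points carry no test. Time point also served as a block. Deviations of PNY and SHAM arrays of the same time point from their group means correlated over probe sets with r of 0.60, 0.36, 0.30 and 0.30 from 6 hours to 7 days. Between different time points r ran from -0.51 to 0.34. PNY of 7 days correlated more with SHAM of 3 days (0.34) than with SHAM of 7 days (0.30), so the pairing is less clear for the late arrays. Alternatives were centring, another quantile normalization, a filter at the median level, other priors and terms, a fold of 2 or no fold, and leaving out arrays. Named were all members, the list genes that passed (otherwise the 3 with the largest difference), and the 5 genes most like Ighm, Igk and Jchain.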

Additional observations from a re-analysis of the deposited data

Results flagged for a closer look

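Of 102 groups of 4 arrays (25 probe sets of the 9 genes and 26 of other immunoglobulin genes, PNY and SHAM apart), 6 held an array set far from the other 3, measured as its gap to the nearest array over the whole range of the group, against Dixon's critical value. Chance flags about 1 in 20 groups. In PNY the array of 1 day stood high for Ighm 1425385_a_at (0.896) and Igkv15-103 1427837_at (0.908). The array of 7 days stood high for Prdm1 (0.881) and low for Igkv5-39 1451948_at (0.874), and that of 6 hours was high for the dim Ighm 1451949_at (0.912). In SHAM the array of 1 day was low for Igk 1425738_at (0.959).

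In 4 probe sets both late arrays lay below both early arrays in PNY and above them in SHAM, an order of opposed direction that 3.33% of all probe sets hold in either sense; the difference was not tested. Late minus early in SHAM exceeded that in PNY by 2.99 for Ighm 1427351_s_at, 1.58 for Ighm 1427329_a_at, 2.77 for Jchain and 0.65 for the dim Igk 1427757_at.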

How the results depend on the processing

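The 167 probe sets called between PNY and SHAM by rank products (0 of the 9 genes) became 102 above the median level, 284 (2 of the 25) with no minimum fold and 65 to 348 (0 to 3) with an array left out. By limma they were 0, with or without time point as a replicate block, and by rank products within time points, the paired form, 169. Omitting both arrays of 1 day, chosen after seeing the data, called 5 of the 25.

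The 1742 probe sets called late against early (0 of the 25; 6 of 27 B cell genes) became 3384 (11 B cell genes) above the median level, 22 (0) with late or early as the only term, 3820 (11) with a trended and robust prior, 112 to 1368 (0 to 12) with an array left out and 3763 (19) without both arrays of 1 day. Of the 25, 0 to 1 passed with an array left out and 2 without the arrays of 1 day. With an array left out, late minus early ran from -0.39 to 0.75 for Ighm 1427351_s_at, -1.39 to 0.85 for Igkv15-103, -0.71 to 0.89 for Jchain and -0.034 to 0.032 for Xbp1 1437223_s_at, so their signs are not settled. Without the arrays of 1 day, and so against 6 hours alone, it was 0.35 for Igkv15-103, 0.029 for Derl3 and 0.047 for Xbp1, against negative values with them. The causes were not tested.

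Past a fold of 2 the 25 probe sets counted 2 at 6 hours, 5 at 1 day and 2 at 3 days, against 5, 9 and 8 past 1.5, and above the median level 3 at 6 hours. Centring and another quantile normalization left each of these counts within 1.5 times its value, and the number of the 25 with a mean difference below 0 stayed between 17 and 23 in all settings. Depth is not given by arrays; 9 of the 25 probe sets lie below the median level, where small signals over background limit what can be read.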
